A study of Mus musculus with 6 samples.

Results

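The proteasome subunit genes were taken as the 39 mouse genes whose symbol is Psma, Psmb, Psmc, Psmd or Psme followed by a number, without the immunoproteasome subunits Psmb8, Psmb9 and Psmb10. A gene counted where at least 1 probe set of the array carried its symbol alone, and the array named 18193 genes in that way. Of the 39 genes, 16 encode the core particle, 20 the regulatory particle together with its assembly chaperones, and 3 the activators that can cap the core in its place. They were read by 84 probe sets, and the probe set with the highest mean signal stood for its gene. The list of genes was set by symbol and not by measured values, but with earlier results of these data known. The probe set of each gene was picked by its measured mean over all samples.

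The proteasome is the main protease for ubiquitin-tagged proteins in the cytosol and nucleus. Its barrel-shaped core particle has outer alpha rings, which form the gate, and inner beta rings, which hold the cutting sites. The regulatory particle caps the barrel: its ATPase ring unfolds substrates, its receptors bind ubiquitin chains and its lid takes the chains off. Subunits are made in matched amounts, and in mammals their genes are known to be raised together by the transcription factor encoded by Nfe2l1 when proteasome activity falls.

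Total RNA was measured on 6 Affymetrix arrays, 1 per sample, from NIH3T3 cells, an immortalised mouse fibroblast line. All cells belonged to clone M, a single clone with several insertions of lacO, a bacterial operator sequence to which lac repressor binds, so all 6 samples share 1 clone and its insertion sites. In 3 untethered samples the insertion lay centrally in the nucleus, and in 3 tethered samples it lay at the nuclear periphery. How it was tethered is not told by the labels. All dishes were grown in DMEM with serum until nearly confluent. Each group has replicates numbered 1, 2 and 3. What the number stands for is not stated, nor whether the dishes came from separate cultures, so p-values measure the spread between these samples, which may be technical.

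Values below are log2 of the deposited intensity. From the dimmest to the brightest array the median rose by 1.72% and the 95th percentile by 16.2%. Tests covered the 22518 probe sets with a mean over 8.93, the median for the whole array without its controls. Of 10 listed fibroblast markers 9 were named on the array, and all 9 passed the filter, with means from 10.89 to 14.55. Of markers of other cells, 4 of 6 for macrophages, 2 of 5 for endothelium, 1 of 5 for epithelium and 2 of 4 for muscle passed it. Their highest means were 10.19 for macrophage Cd14, 9.36 for endothelial Kdr, 11.40 for epithelial Epcam and 10.46 for muscle Des. Epcam thus lay above the fibroblast marker Pdgfrb, at 10.89. The leukocyte gene Ptprc and the macrophage gene Cd68 did not pass.

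Of the 39 proteasome genes, 37 passed the filter: 14 of the core, all 20 of the regulatory particle and all 3 activators. The lowest member above the cut-off had a mean of 10.09, so none passed because of 1 group. The other 2 were forms restricted to particular tissues. Psma8, the alpha subunit of testis, read 7.18, 7.34 and 7.23 in untethered replicates 1 to 3 and 7.47, 7.39 and 7.36 in tethered ones. Psmb11, the catalytic subunit of thymic epithelium, read between 8.78 and 8.89 on all arrays. Psme2, the partner of Psme1, was read only by a probe set with several symbols and was given no value.

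Differences in proteasome genes between tethered and untethered cells did not exceed the spread between arrays, and the larger differences followed the replicate number. In both groups the array numbered 1 had less signal than the other 2 for nearly every subunit of the core and of the regulatory particle. Over the 37 genes the arrays numbered 1 lay at a median of 63.99% of the signal of numbers 2 and 3, a difference of -0.64 in log2 intensity, against -0.02 over all tested probe sets. The median over the 3 activators was -0.15.

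**Figure D1:**
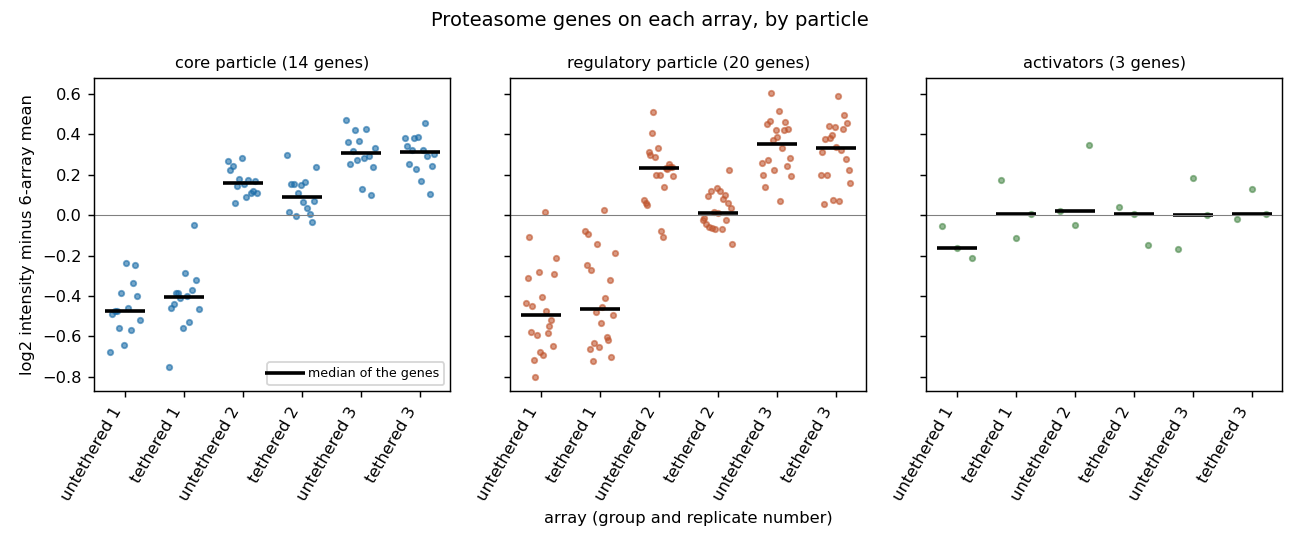
Signal of every tested proteasome gene on each array, drawn as log2 intensity minus the gene's mean over the 6 arrays, for the core particle (14 genes), the regulatory particle (20) and the activators (3); the x axis gives group and replicate number. Both arrays numbered 1 lie lowest for the core and the regulatory particle, with medians of -0.47 and -0.41 for the core, and the activator medians lie between -0.16 and 0.02.

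The comparison the study set out to make was between tethered and untethered cells, that is, whether expression differs when the insertion is at the inner nuclear membrane. Tethered minus untethered differences of the 37 genes ran from -0.21 for Psmc4 to 0.17 for Psmd7, with a median of -0.03 against -0.02 over all tested probe sets. By limma's test, 0 of the 37 genes had an adjusted p under 0.05, 0 had an unadjusted p under 0.05, and 0 had groups that did not overlap. Over all tested probe sets 0% were called, 536 had an unadjusted p under 0.05, and groups did not overlap in 8.16%. This test had no term for the replicate number. In it the smallest unadjusted p of a proteasome gene was 0.1655, for Psme1, and the smallest adjusted p over all probe sets was 0.9994. By limma with the number as a block, they were 0.05937, for Psmd7, and 0.7401.

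Psmc4, an ATPase of the regulatory particle, read 10.51, 11.83 and 11.92 in untethered replicates 1, 2 and 3. In tethered replicates it read 10.68, 11.25 and 11.70. The groups overlapped, and the gap of more than 1 log2 unit between number 1 and number 3 within each group was larger than the difference between groups, -0.21 with a standard error (SE) of 0.44. Psmd7, the structural partner of the lid's deubiquitinase, read 10.77, 11.38 and 11.98 in untethered cells and 11.01, 11.58 and 12.05 in tethered cells. Each tethered value lay above the untethered one of the same number, but the groups overlapped and the difference of 0.17 had an SE of 0.38. Both SEs are from the fit without the replicate number. With the number as a block they were 0.151 for Psmc4 and 0.070 for Psmd7, and neither gene was called.

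Direct comparison of same-numbered arrays gave small differences of changing sign. The median tethered minus untethered difference over the 37 genes was 0.05 for number 1, -0.13 for number 2 and 0.00 for number 3. Of the 37 genes, 11, 29 and 17 were lower in the tethered array, in that order. Over all tested probe sets the same medians were 0.01, -0.04 and -0.01, and 10492, 12976 and 11717 of 22518 were lower. Among bright probe sets, in the upper quartile of mean signal, 7397 of 11260 were lower for number 2, with a median of -0.10. The arrays numbered 2 differed most for the regulatory particle, where 18 of 20 genes were lower in the tethered array with a median of -0.20, and for its ATPases, where all 6 were lower with a median of -0.28. Each such value compares 1 array with 1 array, so it has no replicate check.

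In fits without the replicate number, the sign of the group difference depended on which arrays were used. Leaving out 1 array makes the numbers unequal between groups, so the difference by number enters the group medians. These shifts therefore do not measure the spread of the group difference alone. With all 6 arrays the median was -0.01 for the core and -0.05 for the regulatory particle. These medians were above 0 without untethered replicate 2 (0.08 and 0.05), without untethered replicate 3 (0.14 and 0.11) and without tethered replicate 1 (0.19 and 0.17). They stayed below 0 without untethered replicate 1 (-0.24 and -0.33), without tethered replicate 2 (-0.06 and -0.08) and without tethered replicate 3 (-0.16 and -0.23). Quantile normalization turned the core alone, at 0.04 and -0.02, and averaging each gene's probe sets put it at 0.00. Without both arrays numbered 1, a choice made after seeing the data that keeps the numbers equal between groups, they were -0.05 and -0.10. In each of these fits 0 proteasome genes and 0 probe sets were called.

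The arrays were then compared by replicate number within the same model, with the group as a covariate. Arrays numbered 1 were set against the mean of numbers 2 and 3, a contrast chosen with earlier results of these data known. In those results both arrays numbered 1 lay apart on the first principal component, the main axis of difference between the arrays. The p-values of this contrast are therefore not independent of its choice. Of the 37 genes, 27 were called lower in number 1 at an adjusted p under 0.05 by limma, 0 were called higher and 10 were not called. Over all tested probe sets 9.09% were called lower and 1.49% higher. Both arrays numbered 1 lay below the other 4 for 34 of the 37 genes and for 23.3% of all tested probe sets. A filter at the upper quartile of mean signal kept 36 of the 37 genes. Among probe sets in that quartile, both arrays numbered 1 lay below the other 4 for 3524 of 11260, and 1505 were called lower. The F test of the 3 numbers called 23 of the 37 genes and 5.16% of all tested probe sets. By role, 13 of 14 core genes, 14 of 20 regulatory particle genes and 0 of 3 activators were called lower. With 2 arrays per number the model has 2 residual degrees of freedom per probe set before moderation. Without tethered replicate 3 the same contrast called 0 of the 37 genes and 0.635% of probe sets lower, and without untethered replicate 3 it called 6 genes and 1.47%. Without tethered replicate 2 it called 29 of the 37 genes and 12.7% of probe sets lower, so the share over the whole array moved as well. Leaving out either replicate 1 left 1 array numbered 1, so counts for these fits are left out here. The F test called 0 of the 37 genes and 0 of all tested probe sets without untethered or without tethered replicate 3. The size of the difference moved less: when each array was left out in turn, the median ran from -0.69 to -0.63 for the core and from -0.75 to -0.65 for the regulatory particle.

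**Figure D2:**
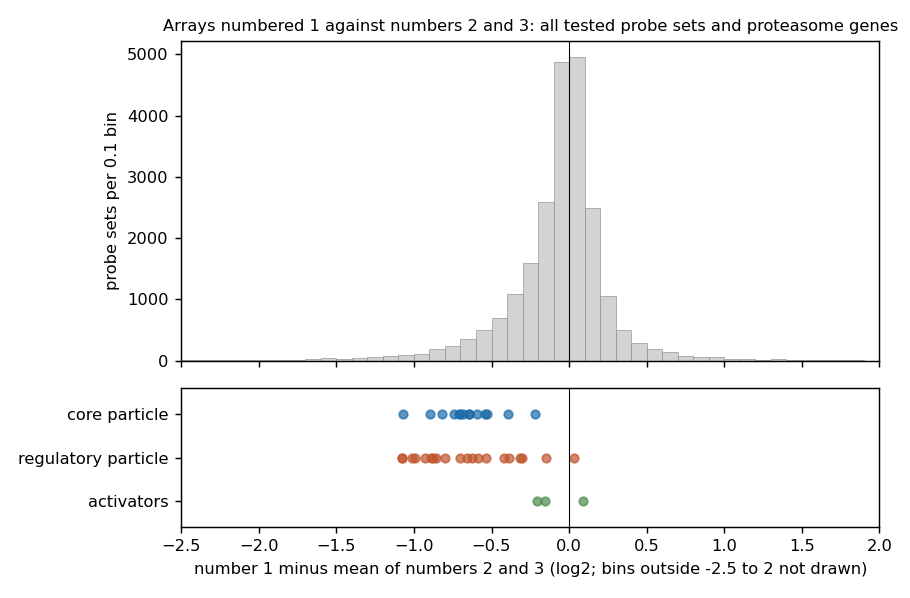
Difference in log2 intensity between arrays numbered 1 and the mean of numbers 2 and 3: the upper panel is a histogram of all tested probe sets in bins of 0.1, and the lower panel has 1 point per proteasome gene for the core particle, the regulatory particle and the activators. The probe sets centre on -0.02, and the core and regulatory particle genes centre on -0.66 and -0.68.

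Signal strength and RNA quality differed between the arrays, though not all by number. The 95th percentile of intensity was 3377 and 3407 on the arrays numbered 1, 3470 on tethered replicate 2, and between 3886 and 3926 on the other 3. Among bright probe sets, those above the upper quartile of mean signal, the median difference for number 1 was -0.06 and 15.3% were called lower when only these were tested, with 28 of 36 proteasome genes. Quantile normalization, which gives every array the same distribution, left 26 of 37 genes called lower, beside 7.37% of all tested probe sets. The medians were then -0.48 for the core and -0.53 for the regulatory particle. The split of all calls moved more: 66.6% of them were lower in number 1 after quantile normalization, against 85.9% without it.

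The transferrin receptor control, whose 5′ minus 3′ log2 signal falls as RNA or labelled product is shortened, read -2.81, -3.07 and -1.52 in untethered replicates 1 to 3 and -2.09, -1.67 and -1.55 in tethered ones. The 3 lowest values were those of untethered replicates 2 and 1 and tethered replicate 1. The same measure for actin ran from -0.56 on untethered replicate 2 to -0.10 on tethered replicate 2, with -0.31 and -0.29 on the arrays numbered 1, and for GAPDH all arrays lay between -0.060 and 0.095. Of the 9 fibroblast markers, 3 were called lower in number 1 and 0 higher: Col3a1 (-1.18), Thy1 (-0.74) and S100a4 (-0.38), with adjusted p of 0.02807, 0.02604 and 0.03384 by limma. The other 6 were not called and ran from -0.74 for Col1a1 to 0.35 for Pdgfrb, with Col1a2 at -0.04 and Fn1 at 0.06. Of the 4 tested macrophage markers, Cd14 was called lower (-0.51, adjusted p = 0.01828 by limma) and the other 3 lay between -0.08 and -0.02. No tested marker of endothelium, epithelium or muscle was called. The part of these differences in the proteasome result was not tested.

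All 7 tested genes of the alpha ring were lower in number 1, by -0.60 to -1.07 in log2 intensity with a median of -0.71. Psma1 had the largest difference of the core. It read 11.87 and 11.79 on untethered and tethered replicates 1, 12.81 and 12.84 on replicates 2, and 13.01 and 12.93 on replicates 3. Numbers did not overlap, and number 1 lay at 47.7% of the signal of the others (-1.07, SE 0.070, adjusted p = 0.004881 by limma). Psma7, which sits beside the gate, read 11.06 and 11.15 on replicates 1, 11.99 and 11.85 on replicates 2, and 12.07 and 12.09 on replicates 3. This was 53.7% (-0.90, SE 0.079, adjusted p = 0.007886). Psma3, whose tail helps close the gate, read 12.62 and 12.66 on replicates 1 and between 13.25 and 13.35 on the others (-0.68, SE 0.070, adjusted p = 0.01061). The other 4 genes of the ring were called as well, at 61.1% to 66.1% of the signal.

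In the beta ring 6 of 7 tested genes were called lower. All 7 had lower means in number 1, with a smaller median of -0.54 and a range from -0.82 to -0.22. The largest difference was that of Psmb3, a subunit with no cutting site, at 56.6% of the signal (-0.82, SE 0.076, adjusted p = 0.008922). Of the 3 catalytic subunits, 2 were called. Psmb7, the trypsin-like subunit, read 12.30 and 12.35 on replicates 1, 12.93 and 13.06 on replicates 2, and 13.15 and 13.12 on replicates 3. Psmb6, the caspase-like subunit, read 12.09 and 12.17, then 12.66 and 12.56, then 12.73 and 12.74. Both were called lower, Psmb7 by -0.74 (SE 0.073, adjusted p = 0.009986) and Psmb6 by -0.54 (SE 0.074, adjusted p = 0.0193).

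Psmb5, the chymotrypsin-like subunit and the main target of proteasome inhibitor drugs, was the 1 core gene not called. It read 12.33 on untethered replicate 1 but 12.53 on tethered replicate 1, against 12.70 and 12.55 on replicates 2 and 12.69 on both replicates 3. The arrays numbered 1 were the lowest here too, but tethered replicate 1 lay only just under tethered replicate 2. The difference was -0.22 (SE 0.095, adjusted p = 0.2229). When single arrays were left out it ranged from -0.36 without tethered replicate 1 to -0.09 without untethered replicate 1. Under quantile normalization it was -0.03 (SE 0.080, adjusted p = 0.8585 by limma). Whether Psmb5 differs from Psmb7 in its response was not tested.

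Of the 6 ATPases of the regulatory particle, 4 were called lower in number 1. All 6 had lower means in number 1, with a median difference of -0.87. Psmc3 had the largest difference of all 37 genes. It read 11.20 on both replicates 1, 12.33 and 12.04 on replicates 2, and 12.39 and 12.36 on replicates 3, so number 1 lay at 47.3% (-1.08, SE 0.090, adjusted p = 0.007122). Psmc4 had the same difference with a wider spread (-1.08, SE 0.160, adjusted p = 0.02261), and it ran from -1.36 without tethered replicate 1 to -0.79 without untethered replicate 1. Psmc1, whose tail opens the core's gate, and Psmc5 were called at 52.5% and 57.4% of the signal. Psmc2 and Psmc6 had lower means in number 1 but were not called, at -0.54 (SE 0.124, adjusted p = 0.06166) and -0.32 (SE 0.105, adjusted p = 0.1344). Leaving out tethered replicate 1 moved Psmc2 to -0.74 with an adjusted p of 0.04639 by limma. A second probe set of each gene was called, at -0.53 for Psmc2 and -0.56 for Psmc6.

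Of the 3 other base subunits, 2 were called lower, and all 3 had lower means in number 1. Psmd1, the scaffold on which a ubiquitin receptor docks, read 11.66 and 11.61 on replicates 1, 12.55 and 12.53 on replicates 2, and 12.74 and 12.77 on replicates 3. Each pair of same-numbered arrays differed by far less than the numbers did, and number 1 lay at 49.5% (-1.01, SE 0.067, adjusted p = 0.004962). Psmd2, which binds ubiquitin-like domains, lay at 66.6% (-0.59, SE 0.073, adjusted p = 0.01549). Psmd4, itself a ubiquitin receptor, read 11.82 and 11.85 on replicates 1, but tethered replicate 2 read 11.89 against 12.19 to 12.23 on the other 3 arrays. It was not called (-0.30, SE 0.10, adjusted p = 0.1366).

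In the lid 7 of 8 genes were called lower, and the median over the 8 was -0.78. Psmd14, the deubiquitinase that removes ubiquitin chains, read 11.55 and 11.74 on replicates 1 and between 12.12 and 12.34 on the other 4, which put number 1 at 64.7% (-0.63, SE 0.101, adjusted p = 0.02763). Psmd7, its partner, lay at 55.1% (-0.86, SE 0.074, adjusted p = 0.007429). Psmd7 was also graded between the other numbers, with number 2 below number 3 by a mean of -0.53, where the median of this difference over the 37 genes was -0.18. The lid subunits Psmd3 and Psmd12 were at 50.1% and 54.1%, and Psmd13, Psmd6 and Psmd11 at 54.6%, 61.3% and 63.3%.

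Psmd8 was the 1 lid gene not called. It read 12.31 and 12.32 on replicates 1, 12.19 and 12.23 on replicates 2, and 12.36 on both replicates 3. Number 1 lay between the others, and the difference was 0.03 (SE 0.066, adjusted p = 0.828). Psmd8 encodes a lid subunit that joins late in assembly.

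The 3 chaperones that help build the ATPase ring, Psmd5, Psmd9 and Psmd10, had a median of -0.39. Psmd9 was called at 74.9% (-0.42, SE 0.076, adjusted p = 0.03559). Psmd5 read 11.27 on untethered replicate 1 but 11.63 on tethered replicate 1, against 11.69 to 11.97 on the rest, and was not called (-0.39, SE 0.117, adjusted p = 0.1143). Psmd10, also known as gankyrin, read between 9.98 and 10.23 on all arrays (-0.15, SE 0.069, adjusted p = 0.2549).

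Of the 3 activators 0 were called by limma, and 1, Psme3, had an unadjusted p under 0.05. Psme1, a subunit of the interferon-induced activator, read 11.10, 11.17 and 10.98 in untethered and 11.33, 11.19 and 11.13 in tethered cells, with its highest value on an array numbered 1 (0.09, SE 0.077, adjusted p = 0.5311). Psme3, the nuclear activator, read 11.23 and 11.28 on replicates 1, 11.34 and 11.40 on replicates 2, and 11.58 and 11.52 on replicates 3. Both arrays numbered 1 were the lowest, but it was not called (-0.21, SE 0.069, adjusted p = 0.1403). Psme4, an activator with a role in sperm formation, read 11.93 on untethered replicate 2 and between 11.37 and 11.59 on the other 5 (-0.15, SE 0.157, adjusted p = 0.608).

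**Figure D3:**
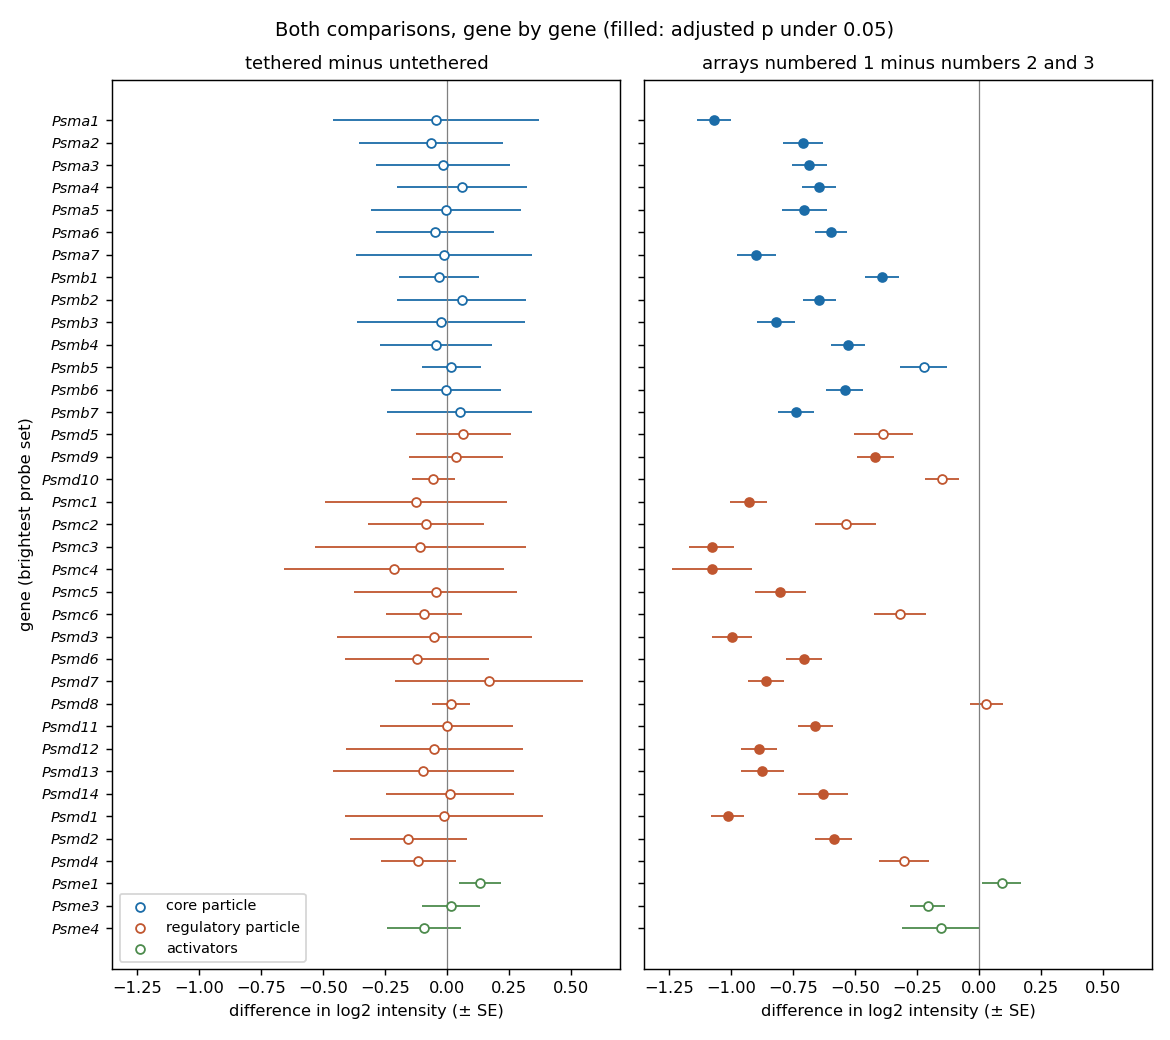
Differences in log2 intensity with their standard errors for the 37 tested proteasome genes, 1 row per gene on its brightest probe set: tethered minus untethered in 1 panel, number 1 minus the mean of numbers 2 and 3 in the other. Group differences lie between -0.21 and 0.17 and number differences reach -1.08 and lie below 0 for 35 genes. Standard errors of the group differences are from the fit without the replicate number.

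The array order was shared by most members. Untethered replicate 1 was the lowest array for 24 of the 37 genes and tethered replicate 1 for 11. The highest was tethered replicate 3 for 17 genes and untethered replicate 3 for 15. The profile of a gene over the 6 arrays had a correlation of 0.88 or more with the median profile of the other members in all but 3 cases: -0.49 for Psme1, 0.01 for Psmd8 and 0.46 for Psme4. With 6 arrays, 2 of which set most of the spread, these correlations describe the same contrast again. Number 2 lay between the other numbers: the median was -0.55 for number 1 minus number 2, -0.73 for number 1 minus number 3, and -0.18 for number 2 minus number 3.

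Some genes had probe sets that did not move alike in number 1, so the difference given for a gene rests on which probe set is read. For Psma1 the tested probe sets gave -1.07 and 0.03, for Psma3 -0.68 and -0.00, and for Psmd9 -0.42 and 0.13. The second probe sets of Psma1 and Psma3 were dimmer, with means of 9.26 and 10.12 against 12.54 and 13.09 for the brightest. Psmd11 had 6 tested probe sets from -1.08 to 0.06, of which 3 were called lower, and those of Psmd13 ran from -0.87 to 0.30. For Psme3 it was the second probe set that was called, at -0.65 with an adjusted p of 0.01455 by limma, whereas the brightest was not. When each gene's probe sets were averaged, 29 of 37 genes were called lower, beside 10.3% of the 15046 genes and unnamed probe sets tested. The medians were then -0.61 for the core and -0.61 for the regulatory particle.

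Promoters were read because the members moved together by number, and 4 are shown. The windows hold the 250 bases before the annotated start of the gene, from RefSeq on assembly GRCm38.p6, and 32 of the 39 genes had one. They were searched on both strands for TGACNNNGC, the core of the antioxidant response element bound by Nfe2l1 and Nfe2l2, and for CCAAT, bound by NF-Y. Psmb5 and Psmb6 are shown because they are catalytic subunits with the first motif near the start, Psma1 because it has the largest difference of the core and holds CCAAT, and Psmd8 because it was the lid gene not called. Capitals mark matches, and each sequence runs 5′ to 3′ on the strand of its gene.
Psmb5: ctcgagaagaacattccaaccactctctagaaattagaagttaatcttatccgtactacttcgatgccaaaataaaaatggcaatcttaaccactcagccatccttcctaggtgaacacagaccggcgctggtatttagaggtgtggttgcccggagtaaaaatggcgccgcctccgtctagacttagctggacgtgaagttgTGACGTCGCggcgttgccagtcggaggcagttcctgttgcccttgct
Psmb6: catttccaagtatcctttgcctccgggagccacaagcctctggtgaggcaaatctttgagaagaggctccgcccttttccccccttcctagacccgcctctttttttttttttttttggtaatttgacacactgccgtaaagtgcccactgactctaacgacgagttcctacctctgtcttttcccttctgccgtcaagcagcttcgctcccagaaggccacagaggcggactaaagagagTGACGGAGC
Psma1: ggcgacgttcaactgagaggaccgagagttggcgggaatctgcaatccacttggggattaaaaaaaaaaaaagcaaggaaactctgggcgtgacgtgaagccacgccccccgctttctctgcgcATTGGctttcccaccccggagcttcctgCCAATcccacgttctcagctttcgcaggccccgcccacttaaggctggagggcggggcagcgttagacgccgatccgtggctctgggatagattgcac
Psmd8: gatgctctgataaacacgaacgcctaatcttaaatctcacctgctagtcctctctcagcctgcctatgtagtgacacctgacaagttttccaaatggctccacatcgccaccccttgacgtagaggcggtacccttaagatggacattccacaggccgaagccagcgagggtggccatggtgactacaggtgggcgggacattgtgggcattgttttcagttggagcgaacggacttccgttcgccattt

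The Psmb5 window is chr14:54617996-54618245 on the minus strand, with TGACNNNGC from -47 to -39 before the start. The Psmb6 window is chr11:70525107-70525356 on the plus strand, with the match from -9 to -1. The Psma1 window is chr7:114276117-114276366 on the minus strand, with CCAAT read on the opposite strand from -126 to -122 and on the gene's own strand from -98 to -94. The Psmd8 window is chr7:29180674-29180923 on the minus strand and holds neither motif. The first motif was found for 5 genes, Psmb5, Psmb6, Psmc6, Psmd9 and Psmd12, in 14.7% of the members' windows against 10.2% of all 32851 windows. CCAAT was found for 13 genes, in 38.2% of the members' windows against 33.8% of all. Of the 21 genes called lower in number 1 that had a window, 3 held the first motif and 8 held CCAAT. A match is only a run of letters, and none of these genes was measured for binding.

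Genes that work beside the proteasome were read from lists of the pathway, with 62 tested genes, of which 0 were called between tethered and untethered cells by limma and 2 had an unadjusted p under 0.05. By number, 6 of the 62 were called lower (9.68%) and 1 higher (1.61%), which is near the 9.09% and 1.49% of all tested probe sets, so these counts are no result about the lists. Immunoproteasome subunits, which replace the catalytic ones under interferon, were not called by number: Psmb9 and Psmb10 differed by -0.02 and 0.03, and Psmb8 did not pass the filter. Among the 5 chaperones that assemble the core, 1 was called lower and 0 higher, beside 9.09% and 1.49% of all tested probe sets. This was Pomp, needed to form the beta rings, which was lowest on both replicates 1, with 11.86 on the tethered one, and read between 12.55 and 12.75 on replicates 2 and 3 (-0.74, SE 0.069, adjusted p = 0.009132). Psmg1, another of them, was at -0.39 and not called.

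Of 10 tested subunits and partners under other symbols, 1 was called lower, a share near the 9.09% of all tested probe sets. Uchl5, a deubiquitinase bound to the regulatory particle, read 10.83 and 11.05 on replicates 1 and between 11.49 and 12.06 on the other 4 (-0.87, SE 0.11, adjusted p = 0.01589). Another deubiquitinase of the particle, Usp14, was at -0.05, and the small lid subunit Sem1 at -0.03. In the list of 8 genes of the p97 unfoldase, which draws ubiquitin-tagged proteins out of complexes, 2 were called lower, beside the same 9.09%. These were Vcp, the unfoldase itself, by -0.59 (adjusted p = 0.01455 by limma) and its cofactor Nsfl1c by -0.52 (adjusted p = 0.02023 by limma). Of 6 genes for ubiquitin and its activation, 1 was tested, Uba6, which was not called and differed by 0.05.

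Of 10 tested transcription factors and other regulators of proteasome genes, 1 was called lower, again near the 9.09% of all tested probe sets. Nfyc, a subunit of NF-Y, was lower at -0.59 (SE 0.12, adjusted p = 0.04391). Nfe2l1 itself read 12.24 and 12.28 on replicates 1 and between 11.91 and 12.02 on the others, so that both arrays numbered 1 were the highest, but it was not called (0.31, SE 0.068, adjusted p = 0.05524). Nfe2l2 differed by 0.03. Between groups Nfe2l2 read 11.81, 11.79 and 11.77 in untethered and 11.63, 11.64 and 11.55 in tethered cells. These did not overlap, as was so for 8.16% of all tested probe sets. The Nfe2l2 difference of -0.18 had an unadjusted p of 0.0239 by limma, and that of its partner Maff, -0.25, one of 0.0482. Neither Nfe2l2 nor Maff passed the adjusted threshold. The groups overlapped for Maff, and the related Mafg and Mafk differed by 0.06 and 0.01.

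Among 7 tested genes of proteotoxic stress, 1 was called lower and 1 higher in number 1, where 9.09% and 1.49% of all tested probe sets were called. Sqstm1, which carries ubiquitin-tagged proteins to autophagy, read 13.92 and 13.93 on replicates 1, 13.25 and 12.87 on replicates 2, and 13.01 and 12.79 on replicates 3. Its signal on the arrays numbered 1 was 192.4% of that on the others (0.94, SE 0.10, adjusted p = 0.01147). Hsph1, a chaperone that helps refold proteins, went the other way at 65.2% (-0.62, adjusted p = 0.01158). Zfand2a, a stress-induced partner of the proteasome, read 12.25 and 12.16 on replicates 1 but also 12.27 on untethered replicate 2, and was not called (0.56, SE 0.18, adjusted p = 0.1343).

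The subunits of another large complex were read in the same way. Of 19 tested genes of the small ribosomal subunit, 0 were called lower or higher in number 1 by limma, 0 had an unadjusted p under 0.05, and their median difference was 0.05. Their mean log2 intensities had a median of 14.18 and reached 14.51, close to the top of the array's range, where Vim, at 14.55, was at percentile 100. How far these probe sets can register a change at that level was not tested, nor was the difference between this list and the proteasome genes.

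**Figure D4:**
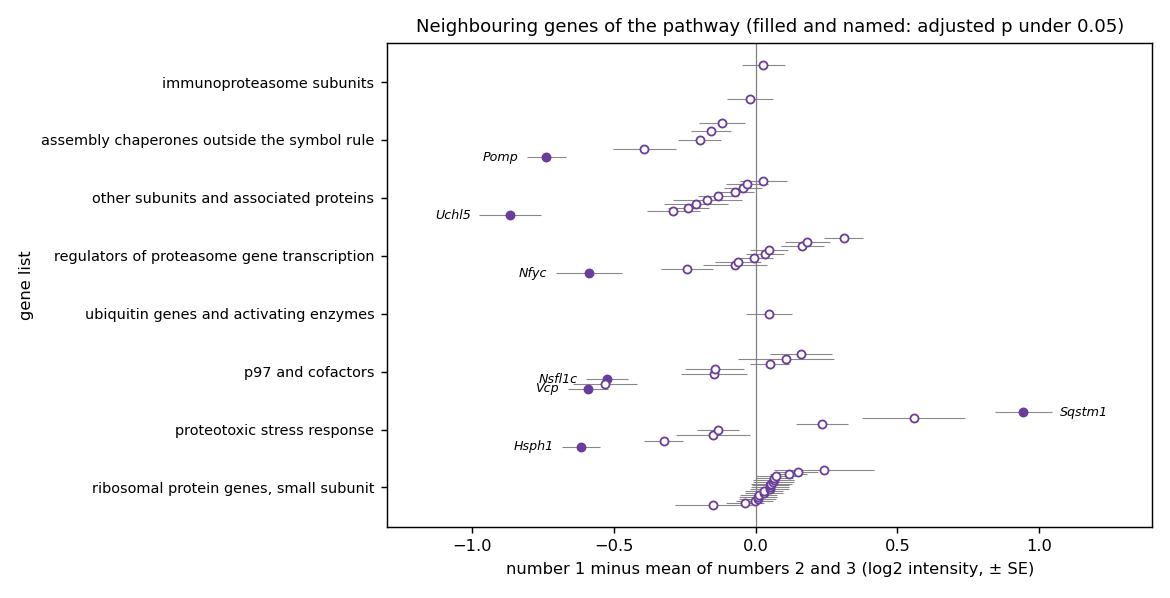
Number 1 minus the mean of numbers 2 and 3 in log2 intensity, with standard errors, for tested genes of lists beside the proteasome, 1 row of points per list; filled points with names had an adjusted p under 0.05. Pomp, Uchl5, Vcp, Nsfl1c, Nfyc and Hsph1 lie below 0 and Sqstm1 above it, while the genes of the small ribosomal subunit have a median of 0.05.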

How the data were processed

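The authors deposited linear intensities, with 1 value for each probe set on each array, from biotin-labelled Affymetrix arrays, per the labels' protocols. Probe summary software and scaling were not stated by the labels, and no detection calls were used. The platform annotation gave the gene names, and gene identifiers served to update symbols: of 45101, 64 were controls, 34945 had 1 symbol, 932 several and 9160 none. Probe sets with several symbols were given no gene.

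Log2 was taken after raising intensities under 16 to 16. Probe sets with a mean above the median of all were tested with limma 3.58.1 in R 4.3.3, over all 6 arrays and two-sided, and p-values were adjusted by Benjamini-Hochberg over all 22518. Errors are standard errors of the fit. Tethered and untethered arrays were compared with no covariate. Replicate numbers were compared with the group as covariate. A percent of signal is 2 to the power of the log2 difference. The analysis was tested on simulated data. For the group comparison these held no difference by replicate number, so they do not show how well that test works beside one. The number of arrays limits the precision.

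The members, the gene lists and the contrast between numbers were chosen with earlier results of these data known. Genes were named by a fixed rule: the catalytic, gate, ATPase, ubiquitin-handling, chaperone and activator subunits, and in each of the 3 classes up to 3 genes per direction with the largest differences, with up to 2 genes per direction of each other list. Psma5, Psmb1, Psmd3, Psmd6, Psmd11, Psmd12 and Psmd13, and the probe sets that disagree, were named after their values were seen.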

Additional observations from a re-analysis of the deposited data

How the results depend on the processing

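Between tethered and untethered cells 0 probe sets and 0 proteasome genes were called under every alternative run: quantile normalization, arrays centred on their medians, a floor of 64, no filter, a filter at the upper quartile, other rules for a gene's probe set, the replicate block, each array left out in turn, and both arrays numbered 1 left out. Labels give both groups the numbers 1 to 3. Deviations of same-numbered arrays correlated at 0.71, 0.075 and 0.711, and an array numbered 2 correlated better with one of another number, at 0.219. Numbers 1 and 3 thus deviated together and number 2 did not clearly do so, and the labels do not say what a number marks, so the arrays were not treated as pairs. With the replicate number as a block, limma called 0 probe sets, 0 of them proteasome genes, and 1232 probe sets had an unadjusted p under 0.05 against 536 without it.

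For number 1 against numbers 2 and 3, 27 proteasome genes and 2383 probe sets were called. Leaving out each array in turn gave 0 to 29 genes and 153 to 3367 probe sets. The F test called 23 genes and 1161 probe sets, with 0 to 27 genes and 0 to 2979 probe sets on leaving out arrays, and 645 probe sets with no filter. The core and regulatory medians were -0.48 and -0.53 under quantile normalization, and -0.61 and -0.61 with each gene's probe sets averaged. Of all calls, 85.9% were lower in number 1, against 66.6% under quantile normalization, 66.4% without untethered replicate 1 and 69.9% without untethered replicate 2. Over the named proteasome genes and alternatives, 390 values stayed on the same side of the threshold, called or not, 49 lost a call, 10 gained one and 0 reversed, where a value within 1 SE of 0 was given no direction. The cause was not tested.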
